A study of Homo sapiens with 2 samples.

Results

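The genes described here are 10 cyclin genes that act in the cell cycle, namely CCND1, CCND2, CCND3, CCNE1, CCNE2, CCNA1, CCNA2, CCNB1, CCNB2 and CCNG2, out of 20050 protein-coding genes of GRCh38.p14 on the chromosomes of the peak tables. They were chosen by name, with earlier results of these data known. A gene was counted as having a peak when a peak lay inside it or within 3 kb of one of its ends. CUT & Tag with an anti-Flag antibody had been done in TFK-1, a cell line of extrahepatic cholangiocarcinoma. LV-HOXA5 cells had been transduced with a lentivirus for Flag-tagged HOXA5 and LV-HOXA5-NC cells with a negative control lentivirus, and stable lines of each were selected with puromycin. Each condition had 1 library made from 1000000 cells, so no difference between the libraries has a replicate check and none was tested. The antibody sees the tagged lentiviral protein and not the HOXA5 of the cells themselves. The LV-HOXA5 library held 15778555 fragments and 8043 peaks, whereas the LV-HOXA5-NC library held 1948734 fragments, 12.4% of the former, and 635 peaks.

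Cyclins are the regulatory subunits of cyclin-dependent kinases, and their rise and fall drive a cell from one phase of its cycle to the next. D cyclins pair with CDK4 and CDK6 in G1 and lead to phosphorylation of the retinoblastoma protein, E cyclins pair with CDK2 at the start of S phase, A cyclins act with CDK2 and CDK1 through S and G2, and B cyclins activate CDK1 at mitosis. Cyclin G2 differs from the others in that it is known to slow the cycle and to be made in arrested cells. HOXA5 is a homeodomain transcription factor, a class of proteins whose DNA-binding domain reads short AT-rich sequences with a TAAT core.

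Of the 10 cyclins, CCNB2 and CCNG2 had an LV-HOXA5 peak, 1 each, and the other 8 had none. This was 20.0% of the genes, beside 20.7% of all protein-coding genes, so that the share of the cyclins was close to that of coding genes at large. By class, 0 of 3 D cyclins, 0 of 2 E cyclins, 0 of 2 A cyclins, 1 of 2 B cyclins and the 1 G cyclin had a peak. None of the 10 had a peak in the LV-HOXA5-NC list, where 0.713% of all protein-coding genes had one. Both peaks lay at the start of their gene, one over it and the other just before it. With the window at 3 kb, no cyclin was near the limit, as CCNG2 was inside it at 129 bp and the next gene, CCND2, was outside it at 15414 bp.

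The sequences around the starts of CCNB2 and CCNG2 show how each peak sits on its promoter, and capitals mark the bases that the LV-HOXA5 peak covers. Both run from 250 bases before the start of the gene to 30 bases after it, 5′ to 3′ on the plus strand, and are RefSeq sequences of GRCh38.p14 at chr15:59104896-59105175 for CCNB2 and chr4:77156957-77157236 for CCNG2. The cells' own reads were not used for them.
CCNB2: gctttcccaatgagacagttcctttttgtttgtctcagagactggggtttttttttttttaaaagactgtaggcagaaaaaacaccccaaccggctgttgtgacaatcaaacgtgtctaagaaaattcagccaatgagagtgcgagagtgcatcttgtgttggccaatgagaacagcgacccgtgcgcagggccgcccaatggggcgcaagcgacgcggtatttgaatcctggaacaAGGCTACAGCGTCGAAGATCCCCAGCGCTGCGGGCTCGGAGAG
CCNG2: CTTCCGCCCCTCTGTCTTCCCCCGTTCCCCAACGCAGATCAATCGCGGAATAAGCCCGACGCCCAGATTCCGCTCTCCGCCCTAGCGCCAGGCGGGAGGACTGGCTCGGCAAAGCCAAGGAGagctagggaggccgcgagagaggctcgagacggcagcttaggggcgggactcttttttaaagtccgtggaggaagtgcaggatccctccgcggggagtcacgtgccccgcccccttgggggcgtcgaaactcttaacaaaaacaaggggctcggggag
In CCNB2 the capitals begin only 13 bases before the start, while in CCNG2 they make up 122 bases at the far end of the window and stop well before it.

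CCNB2 encodes cyclin B2, a mitotic partner of CDK1 that is found mainly at the Golgi apparatus. Its peak ran from chr15:59105133 to 59105532 (400 bp) in GRCh38 and covered the start of the gene, from 13 bases before it to 386 bases after it. The summit stood at 59105496, which is 350 bases into the gene. The pileup, that is the number of fragments over the summit, was 15 (exact 95% Poisson interval 8.40 to 24.7, counting error only). The fold enrichment was 4.81 and the −log10 q-value was 4.89. The fold is a ratio of the pileup to the background estimated around the peak, with 1 added to each. The local background recovered from these values was 2.33 fragments, or 1.62 times the genome-wide level of 1.44 fragments. In the LV-HOXA5 list the peak ranked 4036 of 8043 by fold enrichment, so that 49.7% of the peaks were lower and it stood at about the middle of the list.

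CCNG2 encodes cyclin G2. Its peak ran from chr4:77156732 to 77157078 (347 bp), ended 129 bases before the start of the gene and had its summit 423 bases upstream, at 77156784. The pileup was 13 fragments (exact 95% Poisson interval 6.92 to 22.2), the fold enrichment 5.36 and the −log10 q-value 5.15. The local background was 1.61 fragments, or 1.12 times the genome-wide level. It ranked 2759 by fold enrichment, with 65.7% of the peaks lower. The interval of its pileup overlapped that of CCNB2, so their heights were not told apart. The same peak lay inside LOC101928864, a long non-coding RNA gene on chromosome 4 from 77154754 to 77158064 that spans the start of CCNG2, so the peak belongs by position to both genes. No other gene lay within 3 kb of the CCNB2 peak.

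**Figure D1:**
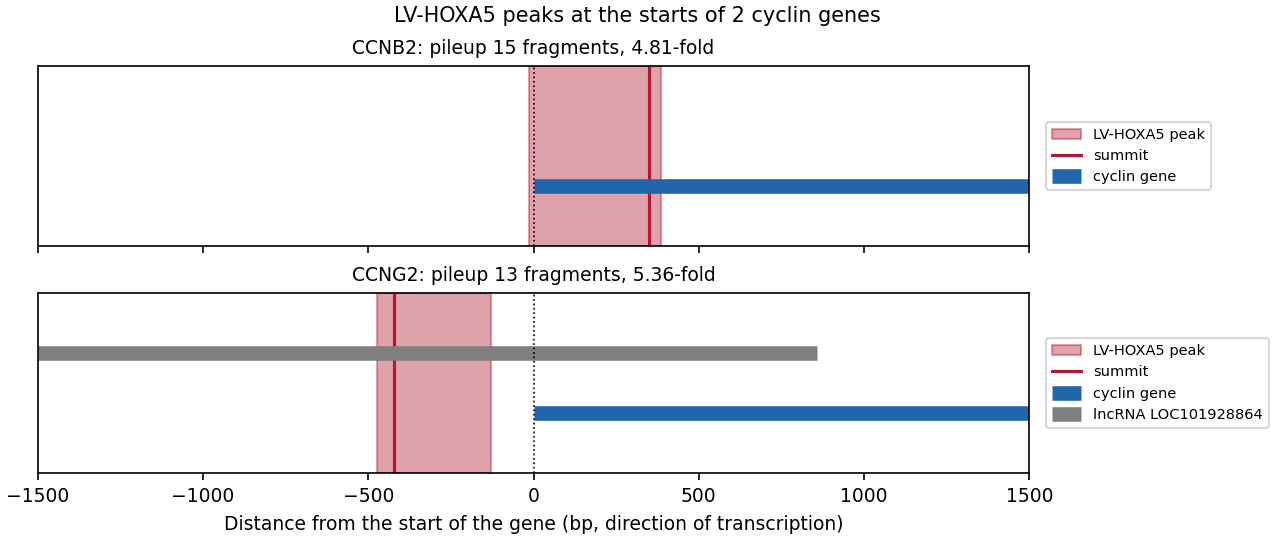
LV-HOXA5 peaks at CCNB2 (top) and CCNG2 (bottom) by distance from the start of the gene in bp, with the gene in blue, the peak shaded, the summit as a red line and the overlapping long non-coding RNA gene in grey. The CCNB2 peak covers the start and has its summit 350 bases inside the gene, whereas the CCNG2 peak ends 129 bases before the start.

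Neither peak stood out among peaks at the starts of coding genes. The LV-HOXA5 list held 1914 peaks within 1 kb of a RefSeq start of a protein-coding gene, with a median pileup of 16 fragments (quartiles 13 and 22) and a median fold enrichment of 4.90 (quartiles 4.22 and 5.74). The fold enrichment of CCNB2 was above 46.9% of them and that of CCNG2 above 64.9%. By pileup, CCNB2 was above 35.8% and CCNG2 above 19.2%. Both cyclin peaks thus lay within the middle 50% of fold enrichments, with pileups below the median.

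**Figure D2:**
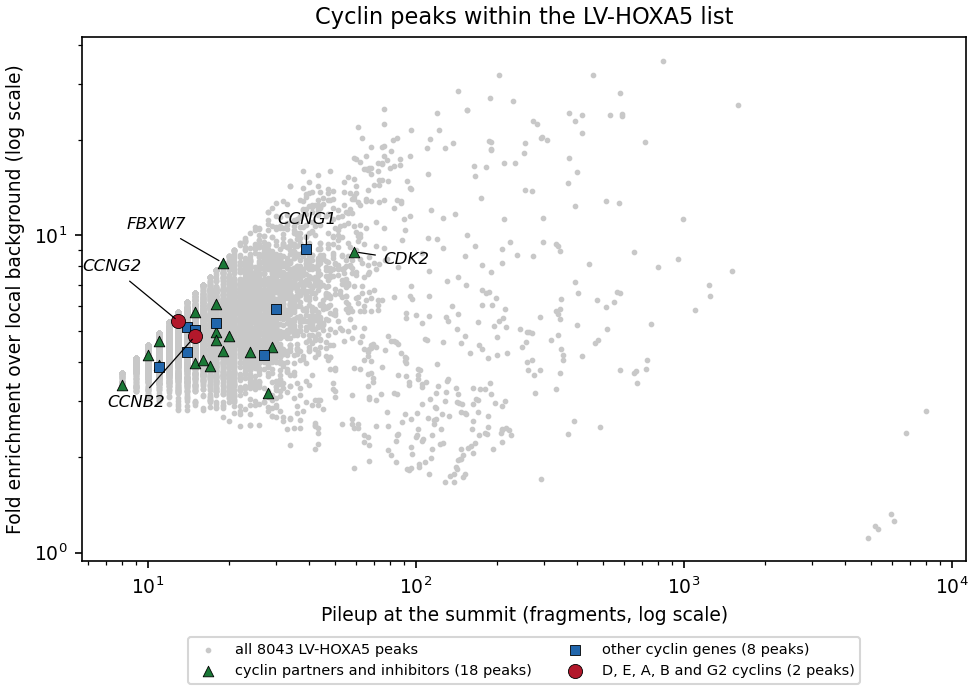
Fold enrichment (ratio to the local background) against pileup at the summit in fragments, both on log scales, for all 8043 LV-HOXA5 peaks (grey) and the peaks of cyclins, other cyclin genes and cyclin partners (coloured). CCNB2 (15 fragments, 4.81-fold) and CCNG2 (13 fragments, 5.36-fold) lie in the dense part of the list, below CCNG1 and CDK2.

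Neither peak overlapped a peak of the LV-HOXA5-NC list, whose library was much shallower. Of the 1914 LV-HOXA5 peaks at starts of coding genes, only 6 (0.313%) did, so this was not particular to the 2 cyclins. Scaled by the totals of fragments, the CCNB2 pileup corresponds to 1.85 fragments in LV-HOXA5-NC and that of CCNG2 to 1.61 fragments. The lowest pileup of any LV-HOXA5-NC peak was 4 fragments. A site of the same density in the control library would therefore lie below every peak of its list. The lack of a control peak at CCNB2 or CCNG2 thus does not show a difference between the conditions.

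The letters of the promoters were compared with those of 35116 RefSeq promoter windows, each from 250 bases before to 50 bases after a gene start, in which 11 short motifs were searched on both strands. Windows were found for 7 of the 10 cyclins, 9 windows in all since CCND3 had several starts. Neither CCNB2 nor CCNG2 held TAAT, the homeodomain core, which 50.2% of all windows held. Among the cyclins with a window, only CCNA2 held it, with its first base 233 bases upstream of the start. TAATTA (4.84% of all windows) and the HOX-PBX strings TGATTAAT (0.664%) and TGATTTAT (0.846%) were in none of the 9 windows. As the CCNB2 window covered 63 bases of its peak and the CCNG2 window 122 bases of its peak, the rest of both peaks, summits included, was not searched.

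CCNB2 held letters of motifs that are known from the promoters of mitotic genes. It held CCAAT, the box bound by NF-Y, 4 times, with the first bases 244, 120, 87 and 54 bases upstream of the start. It also held TTTGAA 29 bases upstream, a form of the cell cycle homology region (CHR) through which DREAM and MYB-MuvB complexes act. CCAAT was in 34.6% of all windows and TTTGAA in 15.2%. All 5 matches lay before the first base of the LV-HOXA5 peak. CCNB1, which encodes the main mitotic partner of CDK1, had no peak and held CCAAT with first bases 87 and 55 bases upstream and no TTTGAA. Of CHR strings only TTTGAA and TTCGAA were searched, so this does not show that CCNB1 lacks a CHR. The matches of both B cyclins are shown in capitals in the same 280 bases of sequence, at chr15:59104896-59105175 for CCNB2 and chr5:69166900-69167179 for CCNB1, both on the plus strand of GRCh38.p14.
CCNB2: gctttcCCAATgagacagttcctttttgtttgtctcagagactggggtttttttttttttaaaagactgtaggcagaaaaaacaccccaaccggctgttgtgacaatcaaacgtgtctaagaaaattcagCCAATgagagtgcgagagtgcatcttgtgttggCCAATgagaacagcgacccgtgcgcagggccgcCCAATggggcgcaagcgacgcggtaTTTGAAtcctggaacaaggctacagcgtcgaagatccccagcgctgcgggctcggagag
CCNB1: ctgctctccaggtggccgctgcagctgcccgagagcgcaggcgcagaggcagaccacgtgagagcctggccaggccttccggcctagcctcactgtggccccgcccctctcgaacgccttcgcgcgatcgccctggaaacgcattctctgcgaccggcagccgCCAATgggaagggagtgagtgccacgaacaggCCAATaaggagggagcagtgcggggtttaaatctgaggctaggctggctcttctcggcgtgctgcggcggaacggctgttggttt
The 2 CCAAT boxes nearest to the start lay at nearly the same distances in both genes, although only CCNB2 had a peak.

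The other windows held few of the motifs. CCNA2 held 1 CCAAT in reverse orientation with its first base 56 bases upstream and the cyclic AMP response element TGACGTCA 81 bases upstream, the latter present in 1.85% of all windows. CCND3 held 1 CCAAT in each of 2 of its 3 windows. CCNE1, CCNA1 and CCNG2 held none of the 11 motifs. The E2F strings TTTGGCGC (0.652% of all windows), TTTCCCGC (1.63%) and TTCCCGCC (3.16%) were not found in any of the 9 windows. The same held for TTCGAA (1.45%), the only other CHR string searched, so a CHR of another spelling would have been missed. The content of G and C was 52.0% in the CCNB2 window and 64.7% in that of CCNG2, on either side of the median of 58.7% over all windows, and it reached 81.0% in CCNE1. A match is a description of the reference sequence and not a binding site.

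Over all 10 cyclins the median distance to the nearest LV-HOXA5 peak was 33.5 kb, beside 77.7 kb over all protein-coding genes (quartiles 10.3 and 246 kb), and 6 of the 10 were nearer to a peak than that median. The 8 cyclins without a peak lay 15.4 kb to 841 kb from the nearest one, with a median of 65.5 kb, and 5 of them had a peak within 100 kb. That limit is above the 77.7 kb median of all protein-coding genes, so most of those genes had a peak within it as well. Of the 8 peaks nearest to these cyclins, 6 lay within 1 kb of an end of another gene and the other 2 lay over 3 kb from any gene end. As these peaks were picked for being nearest to a gene, their positions were not set against those of the whole list. Their pileups ran from 11 to 23 fragments and their fold enrichments from 3.23 to 6.01, with ranks from 1784 to 7753 in the list.

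Among the D cyclins, which link growth signals to the cycle, CCND1 (chromosome 11, 69641156 to 69654474) had its nearest peak 20.7 kb away (69675158 to 69675452, 11 fragments, 4.47-fold). That peak covered an end of LTO1, the neighbouring gene. CCND2 (chromosome 12, 4273762 to 4305353) had its nearest peak at 15.4 kb (4320767 to 4321162, 14 fragments, 4.97-fold), and this peak lay 51 bp from an end of TIGAR, a gene for a phosphatase of sugar metabolism that p53 is known to induce. CCND3 (chromosome 6, 41934933 to 42050035) is the longest of the 10 genes with 115103 bp and was the farthest from a peak, which lay 841 kb upstream (42890601 to 42890868, 12 fragments, 4.49-fold) over an end of PEX39. Of all protein-coding genes, 94.4% were nearer to a peak than CCND3, against 30.4% for CCND1 and 27.9% for CCND2. The D cyclins thus ranged from nearer than most genes to among the most remote.

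The E cyclins differed from each other as well. CCNE1 (chromosome 19, 29811991 to 29824312) had its nearest peak 20.2 kb downstream (29844484 to 29844961, 20 fragments, 3.23-fold), and no gene end was nearer to that peak than that of CCNE1. This was the lowest fold enrichment among the 8 nearest peaks, higher than that of only 3.61% of the list. CCNE2 (chromosome 8, 94880224 to 94896693) had its nearest peak 204 kb away with 23 fragments and the highest fold enrichment of the 8, 6.01. That peak lay 16979 bp from the nearest gene end, of NDUFAF6, a gene for an assembly factor of mitochondrial complex I. Of all protein-coding genes, 30.1% were nearer to a peak than CCNE1 and 71.1% were nearer than CCNE2.

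Among the A cyclins, CCNA2 (chromosome 4, 121816444 to 121823883), the form made in dividing body cells, had its nearest peak 46.3 kb upstream (121870137 to 121870582, 11 fragments, 4.92-fold). The peak covered an end of BBS7, a gene for a subunit of the BBSome of cilia. CCNA1 (chromosome 13, 36431517 to 36442870), the form known from the testis, had its nearest peak 84.7 kb upstream (36346559 to 36346823, 12 fragments, 5.33-fold), 128 bp from an end of SPART-AS1, an antisense RNA gene. CCNB1 (chromosome 5, 69167150 to 69178245) had its nearest peak 191 kb downstream (69369476 to 69370071, 13 fragments, 5.19-fold). This peak covered ends of both AK6 and TAF9. So the B cyclins differed from each other in position, with a peak over the start of CCNB2 and none within 100 kb of CCNB1. CCNB1 was farther from a peak than 69.7% of all protein-coding genes. CCNB2 had 2 further peaks within 100 kb, and CCNG2 had none beside its own.

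**Figure D3:**
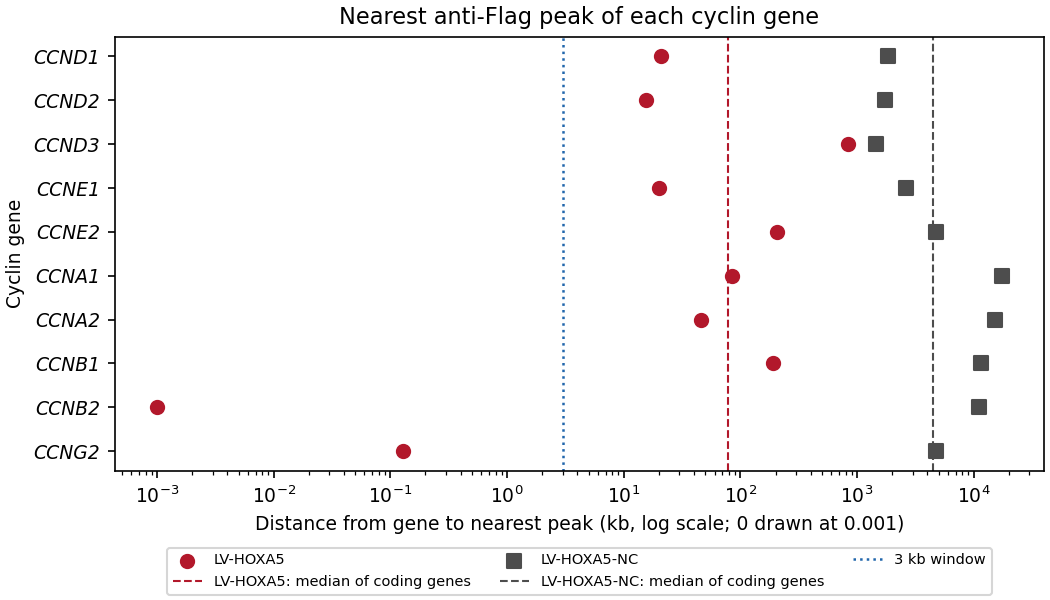
Distance in kb (log scale, with 0 drawn at 0.001) from each cyclin gene to its nearest LV-HOXA5 peak (red circles) and LV-HOXA5-NC peak (grey squares), with the medians over all protein-coding genes (77.7 kb and 4430 kb, dashed) and the 3 kb window (dotted). CCNB2 and CCNG2 lie inside the window, and the other 8 genes lie between 15.4 kb and 841 kb from an LV-HOXA5 peak.

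In the LV-HOXA5-NC list the nearest peaks of the 10 cyclins lay between 1440 kb (CCND3) and 17300 kb (CCNA1) away. Their median of 4730 kb was close to the 4430 kb of all protein-coding genes in that list. Since the control list held 635 peaks, such distances describe how sparse it was.

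The other cyclin genes were read in the same way. Of 20 such genes, 7 had an LV-HOXA5 peak (35.0%, against 20.7% of all protein-coding genes), and 13 had none. Their 8 peaks had pileups of 11 to 39 fragments and a median fold enrichment of 5.08. CCNG1, the p53-induced relative of CCNG2, had the strongest, a peak over its start (chromosome 5, 163437291 to 163437939) with 39 fragments and a 9.07-fold enrichment, at rank 321 of the list. The exact 95% Poisson interval of that pileup, 27.7 to 53.3, did not overlap those of CCNB2 and CCNG2. These intervals cover counting error only and not the choice of CCNG1 as the strongest of the 8 peaks, so the difference was not tested. CCNG1 had a further peak 2243 bp beyond its end with 30 fragments and a 5.86-fold enrichment.

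Cyclins that pair with kinases of the transcription machinery are known as a group of their own, and this grouping was made after their values were seen. Of the 7 such genes, 3 had a peak, each over or just before the start of the gene, beside 20.7% of all protein-coding genes with a peak anywhere in the same window. CCNT1 and CCNT2, which pair with CDK9 to release paused RNA polymerase, had peaks that ended 21 and 17 bases before their starts, with 18 and 14 fragments and 5.28-fold and 5.14-fold enrichment. CCNK, the partner of CDK12 and CDK13, had a peak over its start with 14 fragments and a 4.29-fold enrichment. The other 4, CCNC, CCNH, CCNL1 and CCNL2, had none. CCNYL1 had a peak ending 112 bases before its start with 15 fragments (5.02-fold), CCNJL a peak inside the gene with 11 fragments (3.85-fold) and CCNP a peak 2106 bp downstream with 27 fragments (4.19-fold).

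Of 21 genes for partners, inhibitors and other regulators of the cyclins, 11 had an LV-HOXA5 peak (52.4%, against 20.7% of all protein-coding genes). None of the 20 other cyclins and none of these 21 genes had an LV-HOXA5-NC peak. In that list, from a library with 12.4% of the fragments, only 0.713% of all protein-coding genes had one. With peaks deeper inside a gene left out, 8 of the 21 genes had an LV-HOXA5 peak, beside 15.0% of all protein-coding genes. All 4 kinases had one or more. CDK2, the partner of the E and A cyclins, had the highest pileup with 59 fragments and an 8.88-fold enrichment, 803 bp from an end of the gene. CDK1, the mitotic kinase, had a peak that began 58 bases inside the gene with 11 fragments and a 3.90-fold enrichment. CDK4 had a peak 2462 bp downstream with 15 fragments and a 3.96-fold enrichment. The CDK2 and CDK4 peaks thus lay outside their genes. Whether these peaks also lay in or near another gene was not tested. CDK6, a gene of 232 kb, held 7 peaks of 8 to 20 fragments, none of them within 3 kb of an end. The median gene length was 16.5 kb for the 21 partners and inhibitors, 13.1 kb for the 10 cyclins and 24.1 kb for all protein-coding genes. These medians hide some long genes. Like CDK6, FBXW7 (216 kb) and RBL1 (99.6 kb) had a peak only deep inside, whereas RB1 (178 kb) had none.

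By class the counts were small, and each is to be read beside the 20.7% of all protein-coding genes. Among the inhibitors, 1 of 7 had a peak, a share near that background. This was CDKN2C, an inhibitor of CDK4 and CDK6, with a peak ending 194 bases before its start (10 fragments, 4.21-fold). Of the 3 retinoblastoma family genes, RBL1 had a peak inside the gene (11 fragments, 4.66-fold) and RBL2 one that began 547 bases inside it (18 fragments, 6.10-fold). Both CKS genes, for small subunits of the kinase complexes, had a peak, over the start of CKS1B (29 fragments, 4.45-fold) and 1779 bp beyond the end of CKS2 (15 fragments, 5.72-fold). CDC25B, for a phosphatase that activates the kinases, had 2 peaks of 24 and 28 fragments (4.28-fold and 3.18-fold), the only one of 3 such phosphatase genes with a peak. FBXW7, for the ubiquitin ligase subunit that marks cyclin E for breakdown, had a peak deep inside the gene with 19 fragments and an 8.20-fold enrichment. These lists were drawn up with earlier results of these data known, and genes near each other are not independent. The shares were therefore not tested against the background. Genes beside the peaks of the other cyclins and of the partners and inhibitors were not looked up. A peak outside its gene, as at CKS2, CCNP or CDK4, may thus belong by position to another gene as well.

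**Figure D4:**
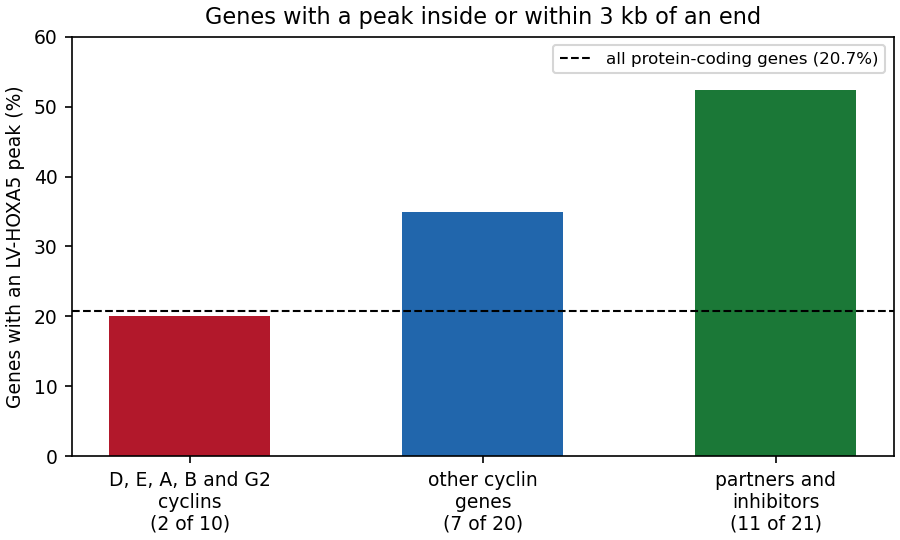
Percentage of genes with an LV-HOXA5 peak inside the gene or within 3 kb of an end, for the 10 cyclins (20.0%), the 20 other cyclin genes (35.0%) and the 21 partners and inhibitors (52.4%), with the share of all protein-coding genes (20.7%) as a dashed line. The bar of the 10 cyclins ends just under the line, and no error is drawn because each condition had 1 library.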

How the data were processed

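CUT & Tag libraries of 1 LV-HOXA5 and 1 LV-HOXA5-NC sample were analysed, with groups from the sample labels. The submitters' processing notes name fastp, Bowtie2, deepTools, MACS2, ChIPseeker and GRCh38. Per the file headers, the authors ran MACS 2.2.7.1 on each duplicate-removed alignment alone (paired-end, effective genome size 2.7e+09, q-value threshold 0.05) and gave it no control file. The deposited values of a peak are its pileup signal (fragments at the summit, not scaled for depth), its fold enrichment (a ratio to the background estimated around it) and its q-value and p-value as −log10. Pileup and fold depend on depth and were ranked within a list. The second deposited form of each list was not used.

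Peaks were set against gene spans of GRCh38.p14 (RefSeq), matched by symbol, and strand came from the RefSeq promoter table. Distance was the number of bases between gene span and peak edge, and an overlap needed 1 bp. The background of a peak was recovered as (pileup + 1) / fold − 1. No test was made between conditions, with 1 library each. Intervals of pileups are exact 95% Poisson limits. The distance and overlap functions were tested on simulated data. Members and lists were chosen with earlier results of these data known. Named are the 10 cyclins, genes of the other lists with a peak, genes sharing a peak with a cyclin, and the gene nearest to the nearest peak of a cyclin without one. Genes without a peak among the transcriptional cyclins are named as well, chosen after their values were seen. Sequences of whole peaks were not used here, as only promoter windows were at hand. Alternatives were other windows, the summit, stricter thresholds, peaks without control overlap, all genes, and other ranks. Python 3.11.15, NumPy 2.4.6, SciPy 1.17.1, pandas 2.3.3 and Matplotlib 3.10.9 were used.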

Additional observations from a re-analysis of the deposited data

How the results depend on the processing

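CCNB2 and CCNG2 kept their peaks with windows of 1 or 10 kb, with gene ends only, with the summit, with a q-value of 0.001 or less and without peaks shared with the control. When peaks under the median fold enrichment of their list were dropped, CCNB2 fell just below the limit, which left 1 cyclin with 1 peak (CCNG2), 4 other cyclin genes, 5 partners and inhibitors, and 11.2% (LV-HOXA5) and 0.339% (LV-HOXA5-NC) of protein-coding genes. The LV-HOXA5 background was 19.6% within 1 kb, 24.8% within 10 kb, 15.0% for gene ends only, 17.9% at the stricter q-value and 11.3% over all genes. The LV-HOXA5-NC background was 0.893% within 10 kb, 0.234% for gene ends only, 0.474% at the stricter q-value and 0.593% over all genes. CCNG2 ranked 4325 by −log10 q-value and 5720 by pileup, and its summit lay 423 bp from the gene. A percentage was held to the 95% binomial interval of its main value, and a count, rank or distance to 1.5 times its main value. By these limits the 18 values above moved and 45 did not. The cause was not tested, but the settings that keep fewer peaks or use a smaller window count fewer genes by construction. No paired analysis was possible because each condition had 1 library. As the control library held 12.4% of the fragments, its lack of a peak could not show whether CCNB2 or CCNG2 differed between conditions.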
